A study of Rattus norvegicus with 11 samples.

Results

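The 78 genes described here encode proteins of the cytosolic ribosome. They were chosen by name, with earlier results of these data known. They are the rows of the count table whose symbol is Rpl or Rps followed by a number and at most one of the letters a, x or l, together with Rplp0, Rplp1, Rplp2 and Rpsa. They make up 78 of 23781 genes in the table, with 31 for the small subunit and 47 for the large subunit, and 77 passed the filter on low counts that left 18049 genes for testing. The exception was Rps17l, with 6 counts in all, every one of them in PLA replicate 2.

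The libraries came from calvarial bone of 4-month-old Sprague Dawley rats, in which a defect had been made across the coronal suture and the bone beside it. The defect was filled with PLA (an electrospun poly(L-lactide) membrane, 2 libraries), GelMA (a gelatin methacryloyl hydrogel, 3 libraries) or CTS (a chitosan hydrogel, 3 libraries), or was left without a scaffold in NC (3 libraries). All 4 groups carried the same defect, and new tissue was taken 6 weeks after surgery, digested with collagenase and sorted by flow cytometry for Cd45- cells, that is, for cells without the surface protein of white blood cells. The labels do not say whether each library came from its own animal, so p-values measure the spread between these libraries, which may be technical.

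Each ribosome carries one copy of nearly every ribosomal protein, and their genes are among the most highly expressed in any growing cell. In mammals their mRNAs begin with a C followed by a run of pyrimidines, the 5′ terminal oligopyrimidine tract, through which the mTORC1 kinase and the RNA-binding protein Larp1 control their translation and stability. Human mutations in a number of these genes cause Diamond-Blackfan anemia.

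Start sites were read from RefSeq. Its promoters (rat assembly GRCr8, which differs from the mRatBN7.2 assembly of the count table) were matched by symbol for 60 of the 78 members. The first transcribed base was C in 51.7% of these 60 promoters, against 24.2% of all 27457 promoters in the same table. The letters CTTTC stood on the sense strand between 20 bases before and 20 bases after the start in 29 of 60 members (48.3%), against 5.04% of all promoters, and on either strand in 50% of members against 9.79%. The longer CTTTCC, which contains CTTTC, was held by 28.3% of members and 3.51% of all promoters on either strand. Over the whole window of 300 bases, CGGAAG, the core letters of ETS factor sites, stood on either strand in 56.7% of members against 17.4% of all promoters, and AAGATGGC, the core letters of YY1 sites, in 6.67% against 3.44%. The letters TATAAA stood between 40 and 15 bases before the start in 6.67% of members and 2.04% of all promoters. Such matches describe the letters and name no bound factor. Windows of 30 bases are shown for 4 members that were called in one of the comparisons below and hold CTTTC, and for 3 called members that do not, in GRCr8 and 5′ to 3′ with the first transcribed base in position 16 and CTTTC in capitals:
Rpl22 (chr5:168117946-168117975, plus strand): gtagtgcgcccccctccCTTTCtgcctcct
Rpl31 (chr9:49143096-49143125, plus strand): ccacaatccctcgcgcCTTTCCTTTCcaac
Rps10 (chr20:5700730-5700759, minus strand): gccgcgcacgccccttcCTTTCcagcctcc
Rps27 (chr2:177964592-177964621, minus strand): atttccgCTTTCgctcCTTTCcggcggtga
Rpl36a (chrX:102059434-102059463, plus strand): ccgcctataaacttccgttgctgctctagc
Rps18 (chr20:4933730-4933759, plus strand): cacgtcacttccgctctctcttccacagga
Rps27a (chr14:107488927-107488956, minus strand): cctaaagggcggttccttcgacccggagac
In Rpl22, Rpl31 and Rps10 the capitals begin within 2 bases after the first transcribed base, and Rpl36a, Rps18 and Rps27a hold no CTTTC in these windows.

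Libraries held 22509898 to 31290849 counts. The TMM factor, which corrects each library for differences in composition, was 0.772 and 0.780 in PLA, 1.12 to 1.14 in GelMA, 1.08 to 1.09 in CTS and 0.804 to 1.09 in NC, and levels below are counts over library size after this scaling (CPM) unless FPKM is named. Ptprc, the gene of Cd45, was read in every library, at 1020 and 1055 CPM in PLA, 1138 to 1347 CPM in GelMA, 1036 to 1272 CPM in CTS and 336 to 1460 CPM in NC. NC replicate 2 stood apart, with 16.9% of its counts in 3 fibrillar collagen genes, against 0.824% and 2.75% in the other NC libraries. Markers of other cell types also differed between groups: the summed level of 11 neutrophil genes was 8938 and 9585 CPM in PLA, 4947 to 12159 CPM in GelMA, 28406 to 48373 CPM in CTS and 9510 to 70433 CPM in NC, and that of 8 B cell genes was 31.2 and 49.6 CPM in PLA, 263 to 388 CPM in GelMA, 87.8 to 135 CPM in CTS and 21.9 to 43.3 CPM in NC. At an adjusted p under 0.05 (edgeR), 5 of 6 proliferation genes were lower in PLA against CTS and 3 against NC. Among all genes 5.86% and 5.5% were lower there. Of the 8 B cell genes, 6 were lower in PLA against GelMA, as were 3.19% of all genes. Some lists had calls the other way in PLA against NC, where 10.1% of all genes were higher. Higher there were 6 of 11 monocyte and macrophage genes, and 6 of 7 tested T and NK cell genes, with 1 lower. The list for pericytes and smooth muscle had 3 of 6 higher. Mitochondrial genes held 3.16% and 3.49% of counts in PLA, 4.53% to 5.31% in GelMA, 5.62% to 6.52% in CTS and 3.57% to 7.81% in NC. The part of these cells and of RNA quality in the results below was not tested. In bulk libraries, fewer cells that make many ribosomes cannot be told apart from fewer ribosomal protein mRNAs per cell.

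Taken as a whole, the ribosomal protein genes held the smallest share of counts in PLA and the largest in GelMA and CTS. Their share was 1.70% and 1.76% in PLA, 3.89%, 4.02% and 3.56% in GelMA, 3.84%, 3.35% and 3.45% in CTS, and 2.72%, 2.30% and 2.99% in NC. No library of PLA overlapped with any other group and none of GelMA or CTS overlapped with NC, while GelMA and CTS overlapped with each other. The group means were 1.73% ± 0.0425 in PLA (SD, n = 2), 3.82% ± 0.237 in GelMA, 3.54% ± 0.259 in CTS and 2.67% ± 0.352 in NC (SD, n = 3 each), with 2.86% in NC when replicate 2 was left out. Per length, as a share of summed FPKM, the order was the same, with 5.37% ± 0.0999 in PLA, 11.5% ± 0.387 in GelMA, 9.83% ± 0.604 in CTS and 7.93% ± 0.706 in NC.

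Scaling by TMM narrowed the distance but kept the order. Summed over all members, the level was 21813 and 22820 CPM in PLA, 34020, 36054 and 31812 CPM in GelMA, 35474, 30772 and 32066 CPM in CTS, and 26017, 28554 and 27501 CPM in NC. Both PLA libraries lay below every NC library, and every GelMA and CTS library lay above every NC library. Small-subunit counts stood to large-subunit counts at 0.713 and 0.724 in PLA, 0.729 to 0.750 in GelMA, 0.745 to 0.766 in CTS and 0.735 to 0.779 in NC. The range was narrow, but both PLA libraries lay below every other library.

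**Figure D1:**
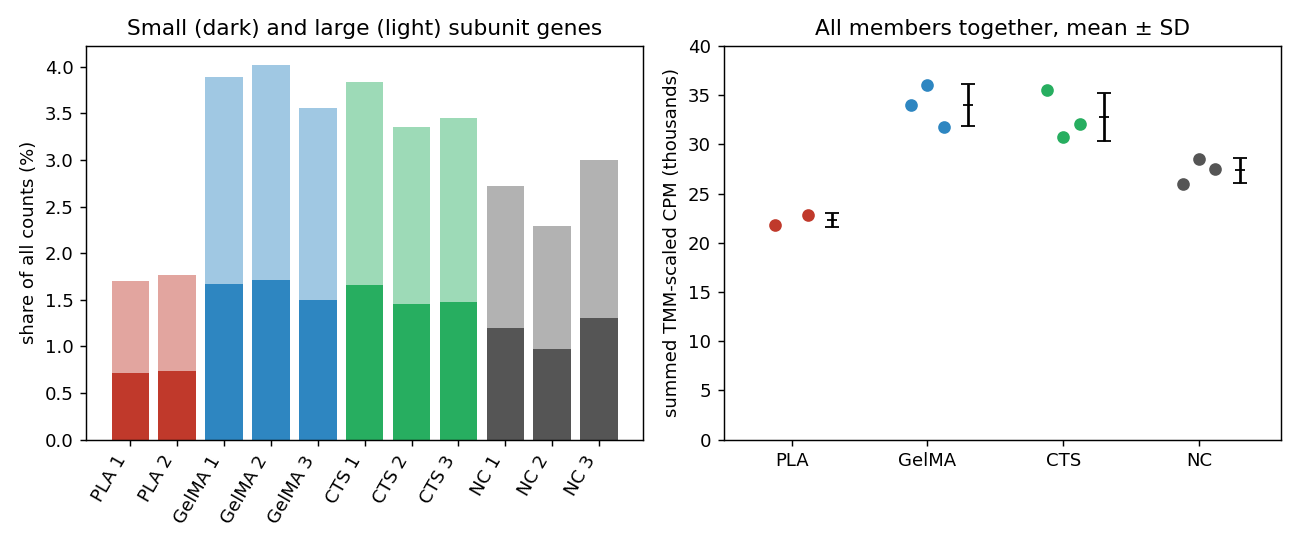
Left, share of all counts (%) held by ribosomal protein genes in each of the 11 libraries, split into small-subunit (dark) and large-subunit (light) genes; right, summed TMM-scaled CPM per library (points) with mean ± SD per group (n = 2 in PLA, n = 3 in GelMA, CTS and NC). The 2 PLA libraries hold 1.70% and 1.76% of counts and lie lowest in both panels.

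Among the members, levels per length spread widely. By mean FPKM over the 11 libraries, Rpl41 (1524 FPKM), a very short basic protein of the large subunit, came first, followed by Rps14 (1431 FPKM), Rps6 (1174 FPKM), the small-subunit protein phosphorylated by S6 kinase, Rps3a (1124 FPKM) and Rpl26 (1090 FPKM). In all, 72 members exceeded 100 FPKM. The other 6 were Rps27l (54.0 FPKM), Rpl37 (14.99 FPKM), Rpl39l (2.2 FPKM), Rpl10l (1.9 FPKM), Rpl3l (1.5 FPKM) and Rps17l. Rpl3l, Rpl10l and Rpl39l are paralogs known from striated muscle or testis, and each stood far below its main form, Rpl3 (431 FPKM), Rpl10 (883 FPKM) and Rpl39 (380 FPKM).

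The comparison of PLA with GelMA gave the widest difference. At an adjusted p under 0.05 (edgeR quasi-likelihood test, Benjamini-Hochberg over all 18049 genes), 46 of 77 members were lower in PLA and 0 were higher, against 3.19% of all genes lower and 5.99% higher. The 46 comprised 20 of 30 small-subunit and 26 of 47 large-subunit genes, with log2 fold changes between -1.03 and -0.58. The median log2 fold change was -0.63 over the members and -0.04 over all genes. In 73 of 77 members both PLA libraries lay below all 3 GelMA libraries, a pattern that 30.7% of all genes showed. One of the 46 calls, Rps27a, passed a log2 fold change of 1 in size, which 6.08% of all genes did together with the adjusted p. The calls rest on both PLA libraries and cannot be checked with either one left out, since the lone PLA library must then be assumed to vary like the other groups. The member median stayed between -0.69 and -0.60 across all libraries left out in turn. Without GelMA replicate 1, 2 or 3, calls remained in 5, 2 and 20 of the 46, and without NC replicate 2 the count was 67. Among all genes 10.4% were lower without NC replicate 2, and 0.564%, 0.631% and 1.09% without GelMA replicate 1, 2 or 3.

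PLA against CTS gave much the same. Here 41 of 77 members were lower in PLA and 0 were higher, against 5.86% of all genes lower and 8.11% higher, and the median log2 fold change was -0.56 over the members and -0.03 over all genes. The 41 comprised 20 small-subunit and 21 large-subunit genes. Both PLA libraries lay below all CTS libraries in 72 of 77 members and in 27.8% of all genes, and only Rps27a again passed the fold threshold, as did 9.95% of all genes. Calls remained in 9, 26 and 36 of the 41 without CTS replicate 1, 2 or 3, and the count was 66 without NC replicate 2. Among all genes 2.47%, 2.84% and 5.38% were lower without CTS replicate 1, 2 or 3, and 13.4% without NC replicate 2. These calls too cannot be checked with either PLA library left out. The member median stayed between -0.64 and -0.53 across all libraries left out in turn. The comparisons with GelMA and with CTS share the PLA libraries.

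Rps27a, which encodes ubiquitin fused to a small-subunit protein, had the lowest log2 fold change among the called members in both. It read 334 and 274 CPM in PLA, 666, 709 and 487 CPM in GelMA, 756, 595 and 611 CPM in CTS, and 461, 467 and 537 CPM in NC. Both PLA libraries lay below every other library. Its log2 fold change was -1.03 ± 0.22 (SE) in PLA against GelMA (adjusted p = 0.0175, edgeR) and -1.11 ± 0.22 in PLA against CTS (adjusted p = 0.00868, edgeR), while against NC it was -0.68 ± 0.21 with an adjusted p of 0.0552.

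Rps18, a protein of the small-subunit head, followed with 209.7 and 215 CPM in PLA, 380.4, 431 and 374 CPM in GelMA, 402, 333 and 362 CPM in CTS, and 267, 323 and 300.3 CPM in NC. It fell by 0.90 ± 0.16 on the log2 scale in PLA against GelMA (adjusted p = 0.00905, edgeR) and by 0.78 ± 0.16 against CTS (adjusted p = 0.0114). The PLA libraries were almost equal and the lowest of all 11. Rpl36a, a large-subunit protein near the tRNA exit site, read 95.8 and 85.1 CPM in PLA, 159, 177 and 152 CPM in GelMA, 181, 151 and 157 CPM in CTS, and 124, 140.4 and 143 CPM in NC. It was lower in PLA than in GelMA (log2 fold change -0.85 ± 0.16, adjusted p = 0.00991), CTS (-0.85 ± 0.16, adjusted p = 0.00654) and NC (-0.59 ± 0.16, adjusted p = 0.0295, all edgeR).

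Against NC, PLA differed less. Of 77 members, 3 were lower and 0 were higher in PLA, against 5.5% of all genes lower and 10.1% higher, so the members' share of calls was no larger than the background. No called member passed a log2 fold change of 1 in size, while 12.3% of all genes passed both thresholds. The median log2 fold change was -0.28 over the members and -0.11 over all genes, 72 of 77 values were negative, and both PLA libraries lay below all NC libraries in 55 members, against 17.2% of all genes. Calls were lost in 2 of 3 genes without NC replicate 3, where 4.04% of all genes were lower. Without NC replicate 2, the library rich in collagen counts, 19 members and 12.5% of all genes were called lower. The count was 5, 6 and 5 without CTS replicate 1, CTS replicate 3 or NC replicate 1, where 4.9%, 5.8% and 6.45% of all genes were lower. The 3 calls cannot be checked with either PLA library left out. The member median stayed between -0.36 and -0.25 across all libraries left out in turn.

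The 3 called genes were Rpl36a, given above, Rpl22 and Rpsa. Rpl22, a large-subunit protein that also binds RNA outside the ribosome, read 87.6 and 91.5 CPM in PLA, 147, 162 and 139 CPM in GelMA, 165, 143 and 147 CPM in CTS, and 136, 131 and 150.1 CPM in NC. Its log2 fold change against NC was -0.64 ± 0.15 (adjusted p = 0.0157, edgeR). Rpsa, the small-subunit protein known also as the laminin receptor, read 439.6 and 495 CPM in PLA, 853, 909 and 750.4 CPM in GelMA, 838, 765 and 732 CPM in CTS, and 653, 794 and 732 CPM in NC, and its log2 fold change was -0.64 ± 0.17 (adjusted p = 0.0338, edgeR). In both genes the other 3 groups overlapped and PLA lay below all of them.

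**Figure D2:**
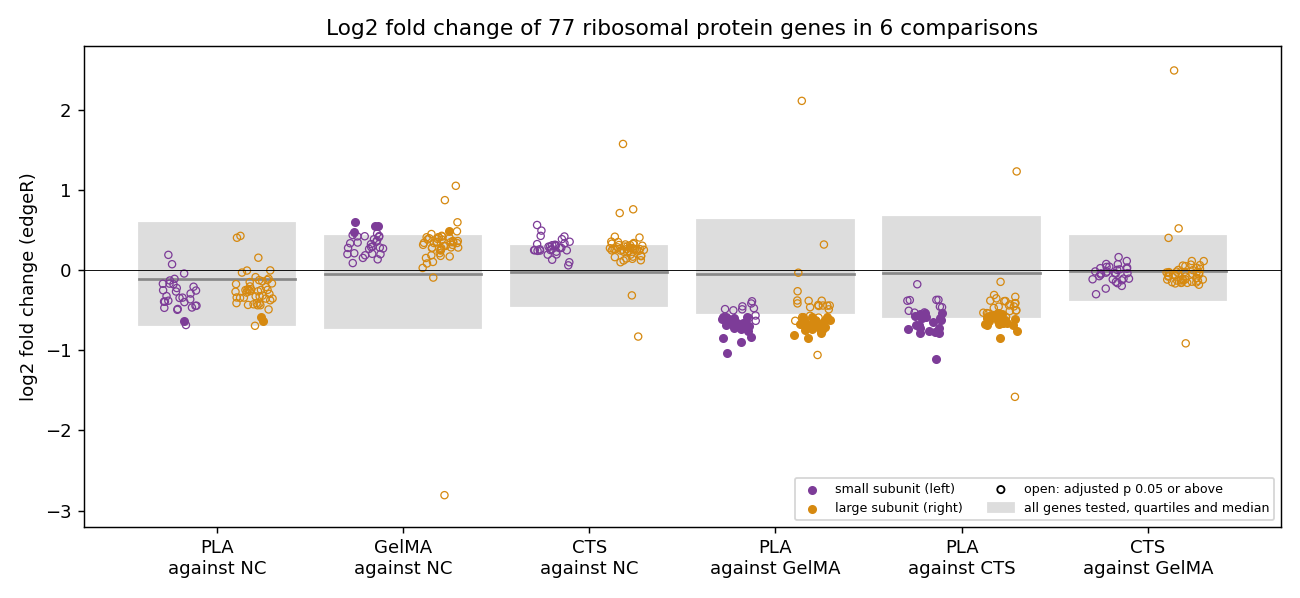
Log2 fold change (edgeR) of the 77 members tested in each of 6 comparisons, small subunit on the left (purple) and large subunit on the right (orange) of each column, filled where the adjusted p was under 0.05; grey boxes and lines give the quartiles and median of all 18049 genes. Members cluster below the grey line where PLA is compared with GelMA (median -0.63) and CTS (median -0.56) and above it where GelMA (0.34) and CTS (0.27) are compared with NC.

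GelMA lay above NC. In GelMA 5 of 77 members were higher and 0 were lower, close to the background of 6.74% higher and 3.97% lower among all genes, and none of the 5 passed the fold threshold, which 8.24% of all genes did. The median log2 fold change was 0.34 over the members and -0.05 over all genes, and 59 members had every GelMA library above every NC library, against 19.3% of all genes. The count was 33 without NC replicate 2, where 12.6% of all genes were higher, and 2 without NC replicate 1, where 7.32% were. It was 0 without GelMA replicate 1, 2 or 3, any CTS library or NC replicate 3, where 2.86% to 5.41% of all genes were higher.

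The 5 were Rps10, Rps27, Rps15, Rpl31 and Rps27l. Rps10 read 179, 204 and 188 CPM in GelMA against 123, 142 and 126 CPM in NC (log2 fold change 0.55 ± 0.13, adjusted p = 0.0274, edgeR). Rps27, a zinc-finger protein of the small subunit, read 379, 478 and 398 CPM in GelMA against 285, 262 and 311 CPM in NC (0.55 ± 0.15, adjusted p = 0.0420). Its paralog Rps27l, a target of p53 in human cells, read 45.4, 49.7 and 50.4 CPM in GelMA against 30.3, 32.7 and 32.5 CPM in NC (0.61 ± 0.17, adjusted p = 0.0434). In each of these genes the GelMA and NC libraries did not overlap.

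In CTS against NC, 0 members were called in either direction (edgeR), and DESeq2 called 0 higher and 0 lower. An unadjusted p under 0.05 (edgeR) was reached by 24 of 77 members and by 2149 of all 18049 genes. Among all genes edgeR called 0.166% higher and 0.0222% lower, with 0.177% past the fold threshold, and DESeq2 called 2.29% higher and 1.37% lower. The median log2 fold change was 0.27 over the members and -0.02 over all genes, and every CTS library lay above every NC library in 55 members, against 9.51% of all genes. CTS against GelMA likewise gave 0 calls by edgeR, against 0.504% of all genes higher, 1.58% lower and 1.74% past the fold threshold. There 1 of 77 members and 3143 of all 18049 genes had an unadjusted p under 0.05 (edgeR). DESeq2 called 1 member higher, against 4.1% of all genes higher and 5.08% lower by that tool. The median log2 fold change there was -0.04 over the members and -0.01 over all genes, and every CTS library lay below every GelMA library in 6 members, against 19% of all genes. A p that misses the threshold does not show that CTS and GelMA were alike.

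Some members have known duties outside protein synthesis. Rpl5 and Rpl11, which bind the p53 regulator Mdm2 as part of the 5S particle, fell by 0.79 ± 0.17 and by 0.66 ± 0.16 on the log2 scale in PLA against GelMA (adjusted p = 0.0195 and adjusted p = 0.0313, edgeR), and Rpl5 also fell against CTS, by 0.64 ± 0.17 (adjusted p = 0.0320). Rps3, which takes part in DNA repair and NF-κB signaling, was lower in PLA than in GelMA (-0.66 ± 0.15, adjusted p = 0.0266) and CTS (-0.59 ± 0.15, adjusted p = 0.0303). Rpl13a, a translational silencer in interferon-treated human cells, was lower than in GelMA (-0.58 ± 0.16, adjusted p = 0.0476), with an adjusted p of 0.103 against CTS. Rps6 was lower in PLA than in CTS (-0.76 ± 0.18, adjusted p = 0.0215), with an adjusted p of 0.0668 against GelMA. The stalk proteins, which recruit elongation factors to the ribosome, were Rplp1 and Rplp2, lower in PLA against both hydrogels with log2 fold changes of -0.59 to -0.67, and Rplp0, at -0.57 ± 0.16 against GelMA (adjusted p = 0.0550).

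**Figure D3:**
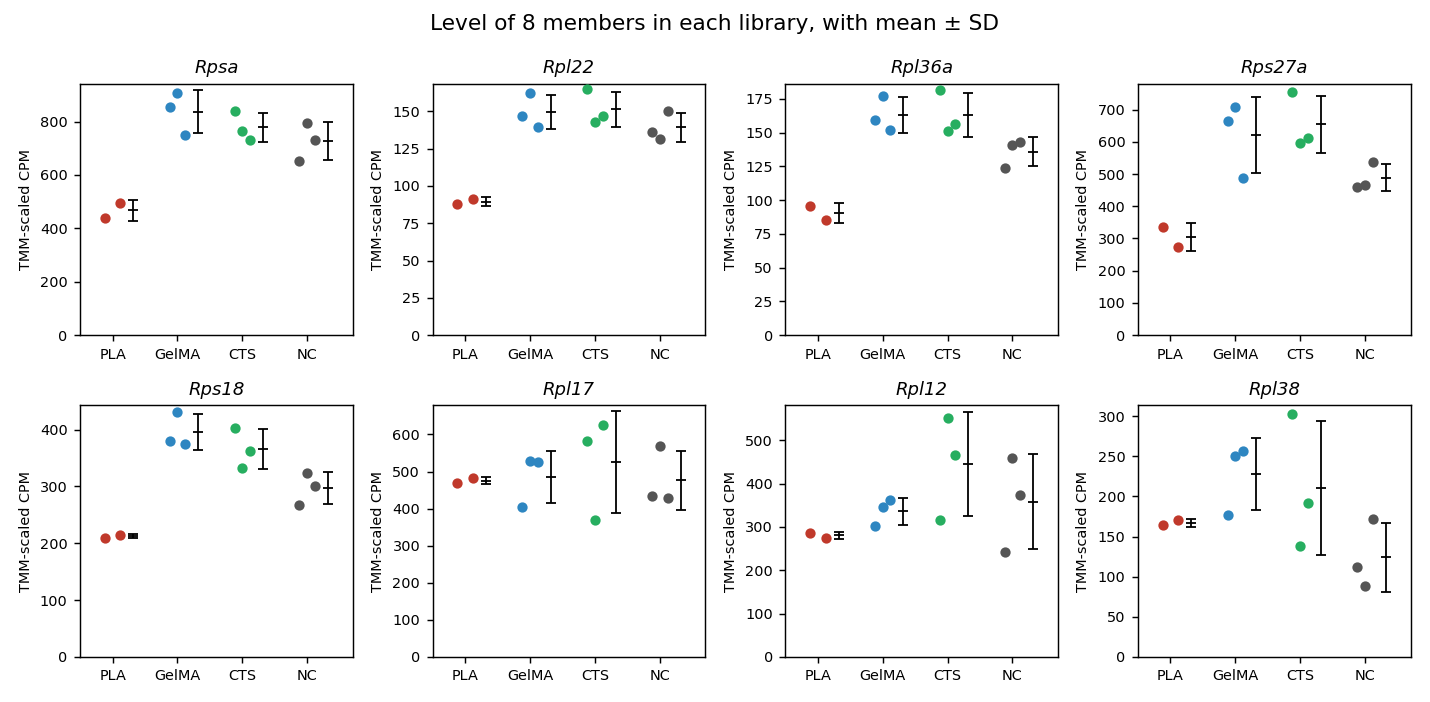
TMM-scaled CPM of 8 members in each library (points) with mean ± SD per group (n = 2 in PLA, n = 3 in GelMA, CTS and NC); the vertical axes start at 0 and differ between panels. Rpsa, Rpl22, Rpl36a, Rps27a and Rps18 have both PLA points below all others, while in Rpl17, Rpl12 and Rpl38 a library of another group lies below both PLA points.

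Within the ribosomal protein counts, the share of most members varied little in size between libraries. For each of the 72 abundant members, the share of all member counts was computed in every library, and the highest share was 1.22 times the lowest in the median gene and under 1.5 times in 66 genes. The exceptions were Rpl38 (2.75 times), Rpl12 (2.03 times), Rpl30 (1.98 times), Rpl17 (1.81 times), Rps27a (1.78 times) and Rps27 (1.51 times). Rps27a took 1.53% and 1.20% of member counts in PLA, 1.96%, 1.97% and 1.53% in GelMA, 2.13%, 1.93% and 1.91% in CTS, and 1.77%, 1.64% and 1.95% in NC. Some smaller shifts set both PLA libraries apart from every other library. Rpsa took 2.02% and 2.17% in PLA against 2.28% to 2.78% elsewhere, and Rpl36a 0.439% and 0.373% against 0.468% to 0.521%. Rpl10 went the other way, at 2.54% and 2.42% against 2.08% to 2.35%, as did Rpl41, at 2.41% and 2.61% against 2.03% to 2.40%. When libraries were scaled to the total of the members instead of by TMM, a test chosen after seeing the data, edgeR called 0 members in 5 of the 6 comparisons, with 0 to 2 members at an unadjusted p under 0.05, and in the sixth, GelMA against NC, the testis paralog Rpl39l was lower in GelMA (log2 fold change -3.08, adjusted p = 0.0403, edgeR). Rpl39l rests on few counts, at 0.270, 0.152 and 0.321 CPM in GelMA against 0.424, 1.72 and 3.14 CPM in NC, and with TMM its adjusted p was 0.0662. With so few libraries, the lack of calls does not show that the makeup was the same.

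Rpl38, which in mouse is needed for the translation of Hox mRNAs and for the axial skeleton, was the most variable abundant member. It read 164 and 171 CPM in PLA, 177, 251 and 256 CPM in GelMA, 303, 138 and 192 CPM in CTS, and 112, 88.7 and 172 CPM in NC. Every GelMA library lay above every NC library, but CTS alone spanned 138 to 303 CPM, and no comparison passed the test, the smallest adjusted p being 0.104 in GelMA against NC.

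**Figure D4:**
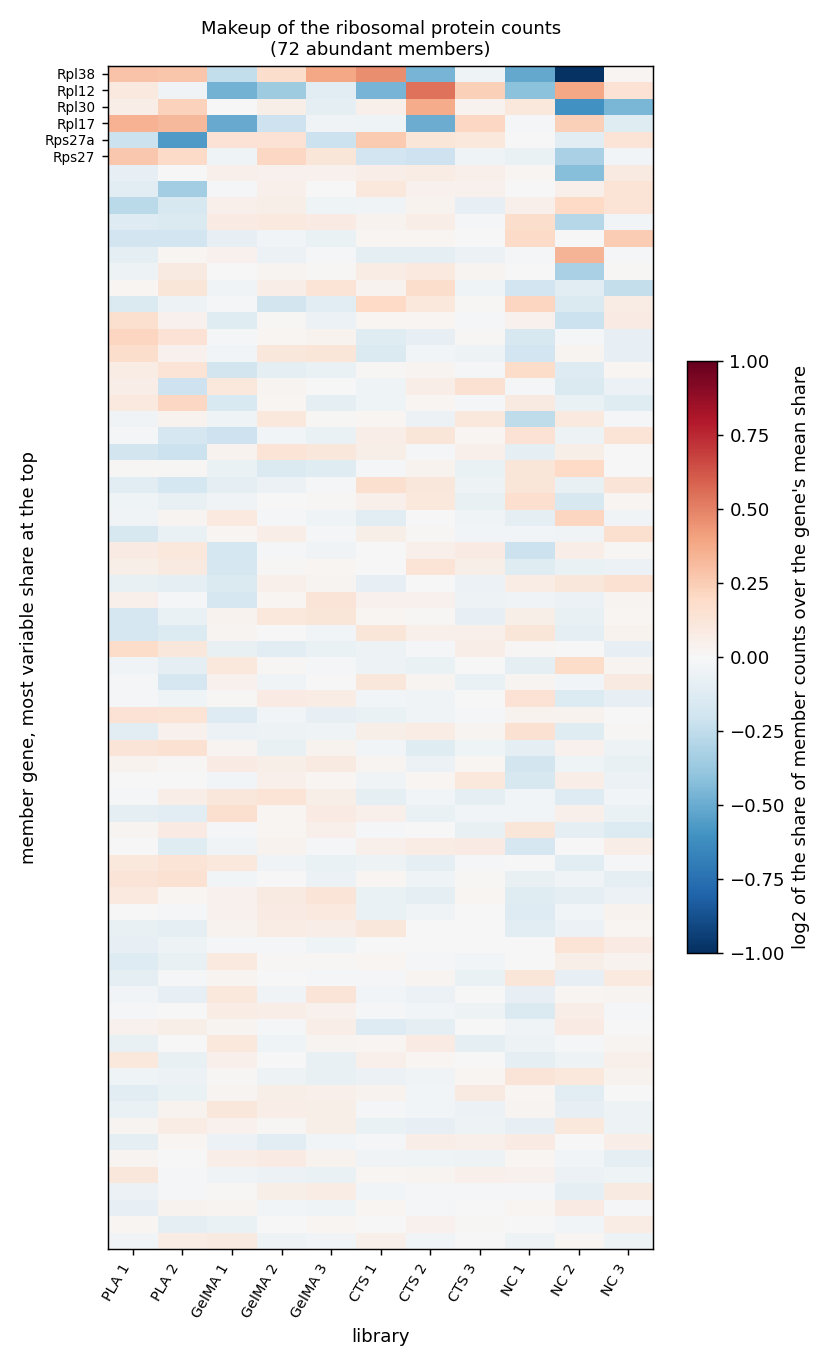
Share of all ribosomal protein counts taken by each of the 72 abundant members (rows) in each library (columns), as log2 of the share over the gene's mean share across the 11 libraries, with red above and blue below the mean; the 6 members with a highest share over 1.5 times the lowest are named. Only the top rows, led by Rpl38 (highest over lowest share 2.75), show strong colour, and most rows are nearly white.

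Some members have rows in the count table that are named as copies of them. The rows were matched by name and not by sequence, and how reads were divided between them was not tested. By symbol, gene number or synonym, 154 further rows of the count table carry a ribosomal protein name in RefSeq, 53 of them pseudogenes, and together they held 0.126% and 0.130% of counts in PLA, 0.246% to 0.276% in GelMA, 0.228% to 0.263% in CTS and 0.147% to 0.221% in NC. Not all of these rows are copies of members, and paralogs such as Rpl22l1 and Rpl7l1 are among them. Where a member has a row named as its copy, its own level is uncertain. Rpl17 read 469 and 482 CPM in PLA, 405, 527 and 525 CPM in GelMA, 582, 368 and 626 CPM in CTS, and 433, 568 and 428 CPM in NC, with overlap of all groups. Rows named as its copies, chiefly a row that RefSeq now lists as a pseudogene of Rpl17, read 4.5 and 4.3 CPM in PLA, 203, 135 and 94.2 CPM in GelMA, 103, 186 and 6.4 CPM in CTS, and 90.5, 5.6 and 90.5 CPM in NC. The sum was 474 and 486 CPM in PLA, 608, 662 and 619 CPM in GelMA, 685, 555 and 633 CPM in CTS, and 523, 574 and 518 CPM in NC, so that PLA then lay lowest and the highest share was 1.22 times the lowest, as in the median member.

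Rpl30 behaved likewise. Its own row read 304 CPM in CTS replicate 2, where its copies were at 17.8 CPM, and 143 CPM in NC replicate 2, where they were at 140 CPM. With the copies added, its highest share was 1.24 times the lowest, against 1.98 times without them. Copy rows held 0.75% of the Rpl38 sum. RefSeq names 29 copies of Rps27a, all pseudogenes, and 14 of Rpl12, but no row of the count table was assigned to them, so the shares of these 3 genes stayed as variable as before. The row named Rpl37 held 86 to 214 counts per library, and another row, which RefSeq now names Rpl37, held 4231 to 10197. That gene, summed over its rows, read 179.7 and 205 CPM in PLA, 289.7, 315 and 275 CPM in GelMA, 281, 266 and 279 CPM in CTS, and 200.2, 224 and 234 CPM in NC, and was lower in PLA than in GelMA (log2 fold change -0.61 ± 0.15, adjusted p = 0.0337) and CTS (-0.52 ± 0.15, adjusted p = 0.0443, edgeR with copies added, a choice made after seeing the data).

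In PLA against GelMA and CTS, and in GelMA and CTS against NC, gene length moved with the results too. The members are short, with a median of 696 bases, and 76 of 77 fall in the shortest quartile of the genes tested. The median log2 fold change of that quartile was -0.15 in PLA against GelMA, -0.22 in PLA against CTS, 0.02 in GelMA against NC and 0.12 in CTS against NC, compared with member medians of -0.63, -0.56, 0.34 and 0.27. In the longest quartile it was 0.06, 0.10, -0.11 and -0.12 in the same order. In PLA against NC the shortest and longest quartiles stood at -0.13 and -0.09, with a member median of -0.28. In CTS against GelMA they stood at 0.07 and -0.05, with a member median of -0.04. The part of length in the results was not tested.

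Other genes of the translation machinery were counted from lists, to be read against the calls among all genes, which were 10.1% higher and 5.5% lower in PLA against NC, 5.99% and 3.19% in PLA against GelMA, and 8.11% and 5.86% in PLA against CTS, with medians of -0.11, -0.04 and -0.03. Of 16 translation factors whose mRNAs carry the same 5′ tract, 4 were lower in PLA than in GelMA and 0 were higher (median log2 fold change -0.42), among them Eef1g, a subunit of the factor that recharges eEF1A (-0.73 ± 0.18, adjusted p = 0.0318, edgeR). Of 73 mitochondrial ribosomal protein genes tested, 10 were lower and 2 were higher in PLA against CTS (median -0.64), 3 were lower and 1 was higher against GelMA (median -0.48), and 2 were lower and 2 were higher against NC (median -0.36). The calls against GelMA were thus close to the background or below it, and those against NC were below it. Mrps6 went the other way, with a log2 fold change of 2.36 ± 0.27 in PLA against NC (adjusted p = 0.000338). Of 33 genes of ribosome biogenesis, 4 were lower and 2 were higher in PLA against NC (median -0.22), including Polr1b, a subunit of RNA polymerase I (-1.19 ± 0.33, adjusted p = 0.0337), and Ltv1, a small-subunit assembly factor (-0.92 ± 0.20, adjusted p = 0.0123), while Sbds (0.82 ± 0.13, adjusted p = 0.00276) and Eif6 (0.66 ± 0.15, adjusted p = 0.0142), which act at the last step of large-subunit maturation, were higher.

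Calls among initiation factors and mTORC1 genes were few and near the background in PLA against NC. Of 22 initiation factors, Eif1 (log2 fold change 0.89 ± 0.16, adjusted p = 0.00487) and Eif5 (0.82 ± 0.15, adjusted p = 0.00561), which set the choice of start codon, were higher in PLA against NC, and Eif5a, which helps stalled ribosomes along, was lower (-0.89 ± 0.24, adjusted p = 0.0293, edgeR). Of 14 genes of mTORC1 and its control of these mRNAs, the translation repressor Eif4ebp1 was higher (1.03 ± 0.23, adjusted p = 0.0140) and its relative Eif4ebp2 lower (-0.86 ± 0.14, adjusted p = 0.00280) in PLA against NC. Of 16 cytosolic aminoacyl-tRNA synthetases, which load amino acids onto tRNAs, 5 were lower and 0 were higher in PLA against NC (median -0.36), among them Lars1 (-0.67 ± 0.15, adjusted p = 0.0157) and Yars1 (-0.70 ± 0.18, adjusted p = 0.0245). Of 10 genes of ribosome rescue, Ltn1, a ubiquitin ligase for stalled chains, was lower (-0.68 ± 0.16, adjusted p = 0.0180) and 0 were higher in PLA against NC. Of 6 ribosomal partners outside the rule, 2 were lower in PLA against both GelMA and CTS: Rack1, a scaffold on the small subunit (-0.83 ± 0.16, adjusted p = 0.0135 against GelMA), and Rpl36al, a close relative of Rpl36a. The 15 human Diamond-Blackfan anemia genes tested are members already counted above, with 11 lower in PLA against GelMA, 9 against CTS and 0 against NC.

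**Figure D5:**
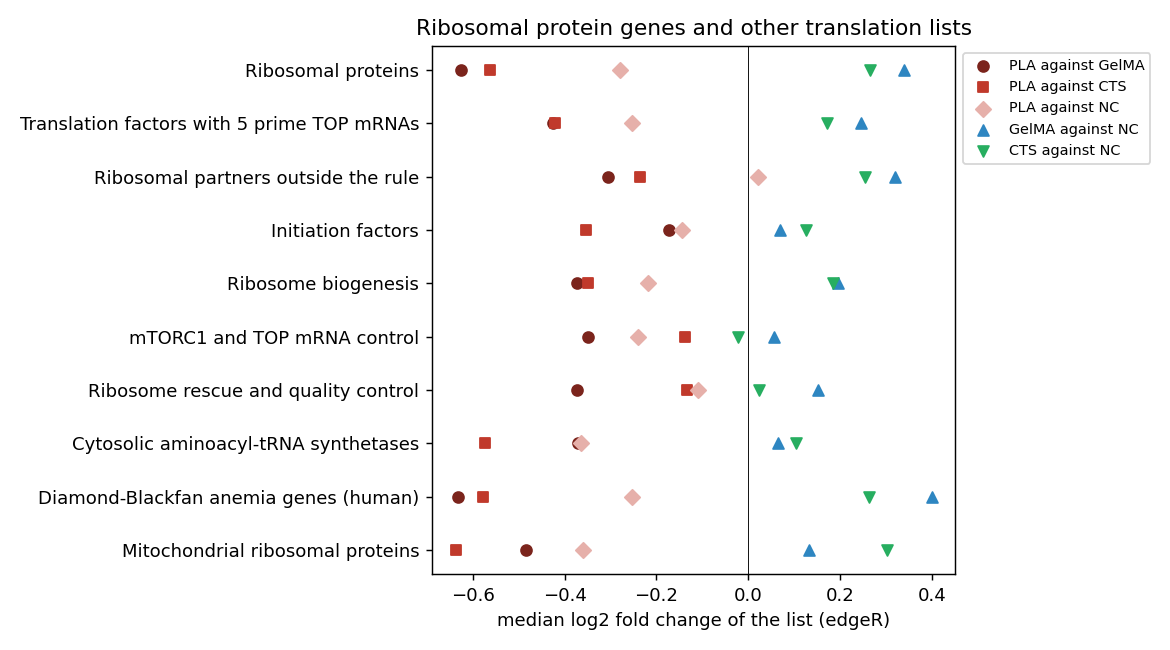
Median log2 fold change (edgeR) of the ribosomal protein genes and of each list of translation genes, in 5 of the 6 comparisons (CTS against GelMA is left out); each symbol is a median over the genes of a list and carries no error. The ribosomal protein genes stand at -0.63 and -0.56 for PLA against GelMA and CTS, and at 0.34 and 0.27 for GelMA and CTS against NC.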

How the data were processed

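RNA-seq was measured in 11 libraries of sorted Cd45- rat cells, prepared with the VAHTS Universal V6 kit. Per the labels, the authors used fastp, HISAT2, HTSeq and DESeq with assembly mRatBN7.2 (versions not given in the sources used here) and deposited raw counts per gene. The authors also deposited FPKM, that is, counts corrected for gene length and library size. Tests on the counts ran in edgeR 4.0.16 under R 4.3.3. Genes passing filterByExpr (minimum count 10) were scaled by TMM and fitted with a robust quasi-likelihood model of all 4 groups, with 6 comparisons and Benjamini-Hochberg adjustment over the 18049 genes tested. Standard errors are the log2 fold change over the square root of F. Alternatives were RLE factors, library size alone, TMM without the members, no filter, 2 groups alone, DESeq2 1.42.0, limma 3.58.1 on log2(FPKM + 1) or log2(FPKM + 0.1) filtered at FPKM 1 in 2 libraries or unfiltered, a fold threshold, a replicate block, and omission of each library in turn. Scaling to the members' total and adding copy rows were chosen after seeing the data.

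The members and gene lists were chosen with earlier results of these data known. Named were the 3 highest and 3 lowest members per comparison, the 5 highest and 5 lowest by FPKM, the stalk genes and Rpsa, the paralogs and their main forms, members with roles outside the ribosome, up to 2 genes per direction from each list, and Ptprc. Called members that the text adds (Rps10, Rps15 and Rpl31), and the genes singled out by variable shares or copies, were chosen after their values were seen. Steps were tested on simulated data. Figures used Python 3.11.15 and matplotlib 3.10.9. Members without a row under their symbol, Rps19 among them, were not analysed here, and some results are not reported here.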

Additional observations from a re-analysis of the deposited data

How the results depend on the processing

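Apart from scaling to the members' total, the direction of the member medians held under every alternative run in the 5 comparisons that involve PLA or NC, while the counts of calls depended on the setting. With library size alone PLA had 38 members lower against NC and 70 each against GelMA and CTS, and 21 were higher in GelMA against NC, with medians of -0.61, -1.16, -1.04 and 0.54, and 0.41 for CTS against NC. That scaling moved the median of all genes to -0.43, -0.58, -0.51, 0.16 and 0.12, so the members' distance from it stayed at -0.18, -0.59, -0.53, 0.39 and 0.29, and its split of calls among all genes was 6.88% higher and 12.6% lower for PLA and NC, 2.94% and 20.6% for PLA and GelMA, and 4.54% and 18.8% for PLA and CTS. For GelMA and NC the split was 9.87% higher and 2.63% lower. With limma, calls for log2(FPKM + 1), log2(FPKM + 0.1) and log2(FPKM + 1) without a filter were 45, 47 and 34 lower in PLA against NC, 72, 72 and 71 against GelMA, 72, 72 and 71 against CTS, and 42, 42 and 30 higher in GelMA against NC. The medians were -0.60 in each for PLA against NC, -1.15, -1.16 and -1.15 against GelMA, -1.03, -1.05 and -1.03 against CTS, 0.55 in each for GelMA against NC, and 0.42 in each for CTS against NC; FPKM carries no composition factor. Limma also called many of all genes, given here in the same order of settings. With NC as the other group, 14.4%, 16.6% and 5.66% of all genes were lower in PLA. With GelMA the shares lower in PLA were 32.6%, 32.5% and 15.4%, and with CTS they were 27.8%, 28.8% and 11.7%. Genes called higher in GelMA than in NC made up 16.7%, 16% and 8.59%. DESeq2 called 21 members lower in PLA against NC, 13 higher and 1 lower in GelMA against NC, and 1 higher in CTS against GelMA. Its shares among all genes were 10.4% lower, 9.07% higher and 9.69% lower, and 4.1% higher, in the same order. With edgeR on 2 groups, calls were 0 lower in PLA against NC, 0 higher in GelMA against NC, 65 lower in PLA against CTS and 1 higher in CTS against GelMA. The shares among all genes were 0.186% lower, 3.16% higher, 13.1% lower and 8.73% higher. In GelMA against NC 0 were higher with RLE factors and 0 with no filter, against 5.96% and 4.13% of all genes. The fold threshold left 0, 1, 1 and 0 calls for PLA against NC, GelMA and CTS and GelMA against NC. Among all genes it left 4.01%, 1.47% and 3.53% lower in PLA, and 5.03% higher in GelMA against NC. The replicate block left 1, 6, 12 and 0. Among all genes the block called 3.24%, 0.914% and 3.39% lower and 4.8% higher, in the same order. Same-numbered libraries did not deviate together (correlations -0.108 to 0.118 over 15 pairs, 1 over 0.1), so the numbers were not taken as pairs.

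Scaled to the members' total, 0 members were lower in PLA in any comparison, and in GelMA against NC 0 were higher and 1 was lower. By construction this removes the shared shift: the member median was 0.02 in PLA against NC, -0.02 against GelMA and -0.01 against CTS, 0.03 in GelMA against NC and 0.0040 in CTS against NC. Also, 13 called values then changed sign, all within 0.03 of 0. In PLA against GelMA these were Rpl10a (0.022), Rpl13a (0.025), Rplp2 (0.016), Rps10 (0.014), Rps12 (0.0072), Rps21 (0.011), Rps24 (0.021) and Rps28 (0.025). In PLA against CTS they included Rpl39 (0.0050), Rps10 (0.015) and Rps28 (0.0066). Adding the copy rows changed no count by more than 1.

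Leaving out one library at a time gave 0 to 19 members lower in PLA against NC, 0 to 67 against GelMA, 0 to 66 against CTS, 0 to 33 higher and 0 to 1 lower in GelMA against NC, and medians of -0.36 to -0.25, -0.69 to -0.60, -0.64 to -0.53, 0.23 to 0.36, 0.18 to 0.29 for CTS against NC and -0.08 to 0.03 for CTS against GelMA. The highest counts came without NC replicate 2, apart from the 1 lower in GelMA against NC. Without NC replicate 2, 12.5%, 10.4% and 13.4% of all genes were lower in PLA against NC, GelMA and CTS. In GelMA against NC 12.6% were then higher. The members' shares of counts ran from 1.70% to 1.76% in PLA, 3.73% to 3.96% in GelMA, 3.40% to 3.64% in CTS and 2.51% to 2.86% in NC. In PLA the share was 1.79% of counts without mitochondrial genes and 1.78% without the collagen and S100 genes; of summed FPKM it was 5.37% in PLA, 11.5% in GelMA, 9.83% in CTS and 7.93% in NC. With 2 PLA libraries, the test of any one gene rests on a spread shared across the groups.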
